A study of Mus musculus with 4 samples.

Results

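The genes described here are the histone genes of the replication-dependent clusters, taken as every gene of the deposited expression files whose symbol starts with Hist and a cluster number from 1 to 4 followed by h. The rule used the symbol and no measured value, and it found 56 of 22718 genes. By symbol, 49 belong to the Hist1 cluster, 5 to Hist2 and 2 to Hist3, while none carries a Hist4 symbol. They comprise 6 genes for the linker histone H1, 15 for H2A, 15 for H2B, 10 for H3 and 10 for H4. The study compared embryonic stem (ES) cells, a pluripotent cell type derived from the early embryo, with and without Prep1, a homeodomain transcription factor encoded by Pknox1. RNA was sequenced from 1 wild type (WT) library and from 1 library labelled Prep1-/-, made from the KO2 line. Per the labels and methods, both lines are of C57BL/6 strain and were grown on gelatin with serum and leukemia inhibitory factor, and their libraries were made from polyA+ RNA. Each genotype is therefore 1 line and 1 library, so line, library and genotype cannot be told apart, and no difference given below has a replicate check. Prep1 binding was measured by chromatin immunoprecipitation (ChIP) in wild type ES cells, which the labels assign to the C57BL/6 strain and the protocol to the R1 line.

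Replication-dependent histone genes lie in dense clusters and supply the histones that package newly copied DNA, so their mRNAs accumulate in S phase. Unlike other mRNAs they normally carry no poly(A) tail and end instead just after a short RNA stem-loop, which is bound by the stem-loop binding protein encoded by Slbp. Some of these genes also give rise to longer transcripts that run past the stem-loop and are polyadenylated, as happens when cells stop dividing. Selection on poly(A) therefore captures these genes in part only, and the reads described here are not a measure of all their mRNA.

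Because the 3′ end decides whether an RNA can be captured, the stem-loop was located in the genome of build NCBIM37 (mm9). It was found in 53 of the 55 members present in the GENCODE M1 annotation, starting 25 to 59 bases after the last coding base (median 34). In 50 of the 53 the letters matched the stem-loop pattern without a mismatch, and in 3, Hist1h2an, Hist1h3g and Hist1h4a, with 1 mismatch. The 7 windows that follow show 5 of the 9 forms found, chosen from each histone type and including 4 of the 5 genes with most reads. Each is given 5′ to 3′ on the strand of the gene, in the 3′ untranslated or flanking region, with the 16 bases of the stem-loop in capitals.
Hist1h1c: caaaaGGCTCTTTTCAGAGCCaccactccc
Hist3h2a: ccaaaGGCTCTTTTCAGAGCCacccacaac
Hist1h2af: ccaaaGGCTCTTTTCAGAGCCaccacttct
Hist1h2bl: tcaaaGGCTCTTTTAAGAGCCacccacact
Hist1h3g: ttaaaGGCTCTTCTTAGAGCCacccatctt
Hist1h4d: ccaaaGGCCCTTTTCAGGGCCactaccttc
Hist1h4b: caaaaGGTCCTTTTCAGGACCactcactga

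The capitals lie at chr13:23831381-23831396 (+ strand) for Hist1h1c, chr11:58768674-58768689 (+) for Hist3h2a, chr13:23626228-23626243 (+) for Hist1h2af, chr13:21807587-21807602 (- strand) for Hist1h2bl, chr13:23627758-23627773 (+) for Hist1h3g, chr13:23673819-23673834 (+) for Hist1h4d and chr13:23849235-23849250 (+) for Hist1h4b. The first arm of the stem differed by histone type. It read GGCTCT in all 44 stem-loops of H1, H2A, H2B and H3 genes, and GGCCCT in 8 and GGTCCT in 1 of the 9 stem-loops of H4 genes. The form shown for Hist1h1c occurred in 32 members, 5 of H1, 12 of H2A, 9 of H2B and 6 of H3. The form shown for Hist1h2bl occurred in 9 members and that of Hist1h4d in 6, all of them H4 genes.

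In all, the files hold 29596294 wild type reads and 25717811 reads of the knockout library. The targeted gene, Pknox1, kept 505 and 332 reads, with RPKM (reads per kilobase of transcript, scaled to the size of the library) of 7.85 and 5.78 and a KO/WT ratio of 0.736 (0.638 to 0.846), so the knockout library is named by its label throughout. All 8 ES cell markers were present in both libraries, and their summed reads had a KO/WT ratio of 1.23. The summed ratio was 1.19 for 8 markers of fibroblast feeders (0.00634% and 0.00774% of the reads, with Lum at 0 wild type reads), 0.790 for 6 markers of primitive endoderm (0.0124% and 0.0101%) and 0.538 for 6 of trophectoderm (0.0269% and 0.0149%). The 6 endoderm markers had a median log2 ratio of -0.76, and 5 of them had ratios below 1. The other was Lama1, with a ratio of 1.12 and 1928 of the 3680 wild type reads of that list. The part of these cell types in the histone values was not tested. KO/WT ratios of single genes are ratios of the deposited RPKM, which the files make from the read count plus 1, and those of groups are ratios of summed reads on the same scale, 1.12 times the ratio of the reads. The values in parentheses after a ratio are its exact (Clopper-Pearson) 95% interval, which covers counting error between these 2 libraries only, since reads are not independent molecules.

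The members were weakly represented. Together they held 4255 wild type reads and 3439 reads of the library labelled Prep1-/-, which is 0.0144% and 0.0134% of each library. The median member had 32 and 26 reads, against 133 and 109 for all genes of the files. Of the 56 members, 52 had at least 1 wild type read, 39 had at least 20 reads in the libraries together, and 17 had fewer, among them 5 of those past a threshold below. For comparison, 9 genes listed as replication-independent histone variants held 36268 and 33047 reads, or 0.123% and 0.128% of the libraries. A few members carried most of the signal, as the plot of reads by library shows. Hist1h4d, an H4 gene, had 1068 and 920 reads, which is 25.1% and 26.8% of all member reads, and the 5 members with most reads (Hist1h4d, Hist1h1c, Hist3h2a, Hist1h2af and Hist1h4i) held 53.1% of the wild type reads. The points lie along a single diagonal from Hist1h4d downwards, and they scatter widely below 20 reads.

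**Figure D1:**
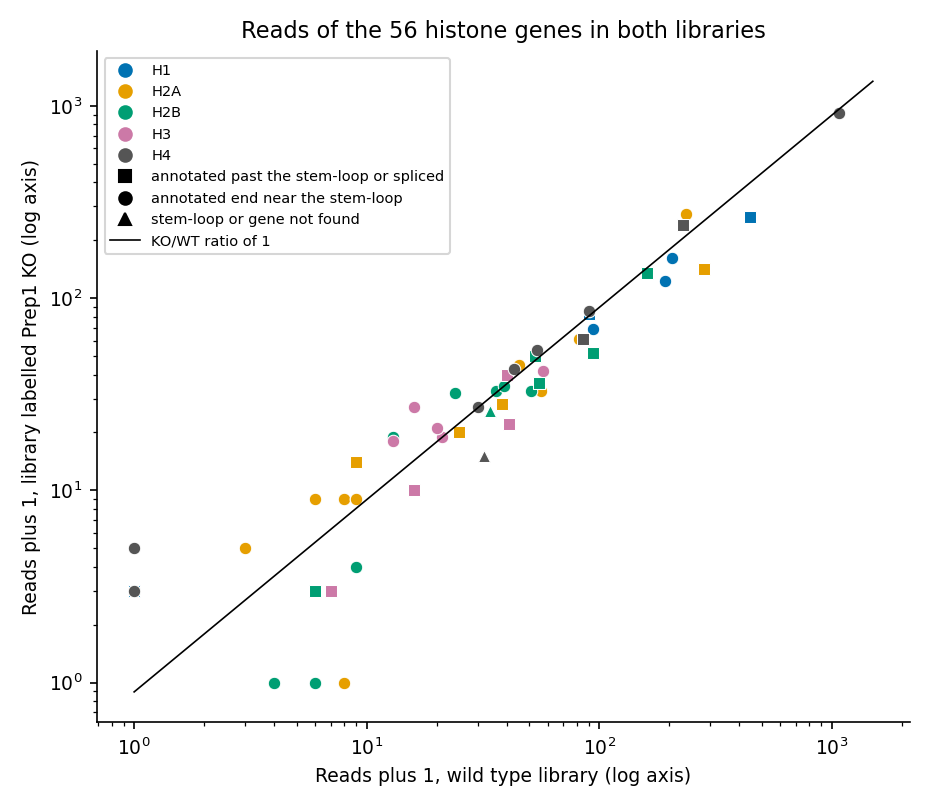
Reads plus 1 of each of the 56 histone genes in the wild type library (x axis) and in the library labelled Prep1-/- (y axis), both on log axes, coloured by histone type and shaped by the annotated 3′ end, with the line of a KO/WT ratio of 1. Hist1h4d stands apart at 1068 and 920 reads, Hist3h2a (281 and 141) and Hist1h1c (445 and 263) lie below the line, and the members with few reads scatter to both sides.

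The order of the levels depended on the length used. On the deposited RPKM scale the highest members were Hist1h2af (101 and 131), Hist1h4d (73.4 and 70.7) and Hist1h2bc (16.4 and 15.5). When reads were instead divided by the longest annotated transcript, in reads per kilobase scaled to the summed reads of each library, Hist1h4d came first with 91.8 and 91.0, Hist1h2af followed with 19.9 and 26.5, and Hist1h4i with 14.4 and 17.4. The length implied by the RPKM of Hist1h2af was 91.8 bases, while its annotated transcript has 399 bases. An implied length under 50% of the annotated one was found for 19 of 54 members. The ratios given below are those of the RPKM scale.

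The median member had like levels in both libraries, while the summed reads lay below 1. With a pseudocount of 0.1, the median log2 KO/WT ratio of the 55 members with a finite RPKM was 0.00, against -0.02 for all genes with finite values and -0.07 for genes with RPKM above 1 in both libraries. Among the 39 members with at least 20 reads, 20 had a ratio below 1 and 19 above 1. The summed reads gave 0.904 (0.864 to 0.945), and 0.884 (0.838 to 0.931) without Hist1h4d. On the chromosomes that carry the clusters, the median log2 ratio of expressed genes (RPKM above 1 in both) was -0.06 for chromosome 13, -0.07 for chromosome 3 and 0.04 for chromosome 11.

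With the thresholds of the study, a wild type RPKM above 1 and a ratio below 0.7, 9 of the 47 members with RPKM above 1 in either library lay below (19.1%, against 13.3% of all genes so filtered). With the filter on the knockout library instead and a ratio of more than 1.5, 7 lay above (14.9%, against 6.91%). At 0.5 and 2 in place of these thresholds, 2 lay below and 3 above, against 3.19% and 3.4% of all such genes. Among members with at least 20 reads the shares were 18.4% and 10.5%, against 12.3% and 5.32% of all such genes. The 9 below were Hist1h1c, Hist1h2ak, Hist1h2an, Hist1h2bf, Hist1h3e, Hist1h4j, Hist2h2bb, Hist2h3c1 and Hist3h2a, and 4 of them also had an interval wholly below 1. The 7 above were Hist1h2ac, Hist1h2bj, Hist1h2bn, Hist1h3a, Hist1h3c, Hist1h4k and Hist1h4m, and none of them had an interval wholly above 1. The last 2 and Hist1h2bn had 0 wild type reads and 2 to 4 reads in the other library, so their place above 1.5 rests on the 1 added to each count, and no ratio is given for them.

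Counting error alone separated few members from a ratio of 1. The interval lay below 1 in 5 of the 39 members with at least 20 reads (12.8%, against 36.0% of all genes with at least 20 reads), namely Hist1h1c, Hist1h1e, Hist1h4j, Hist2h2bb and Hist3h2a. It lay above 1 in 1, Hist1h2af (2.56%, against 20.6%). The other 33 intervals spanned 1. The 39 members had a median of 87 reads in the libraries together and all such genes 1084, and the part of depth in these shares was not tested. Among genes with at least 20 but under 2000 reads, 30.7% had an interval below 1 and 16.3% above. The plot of ratios by member shows that most intervals reach from below 0.7 or 0.8 to above 1.

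**Figure D2:**
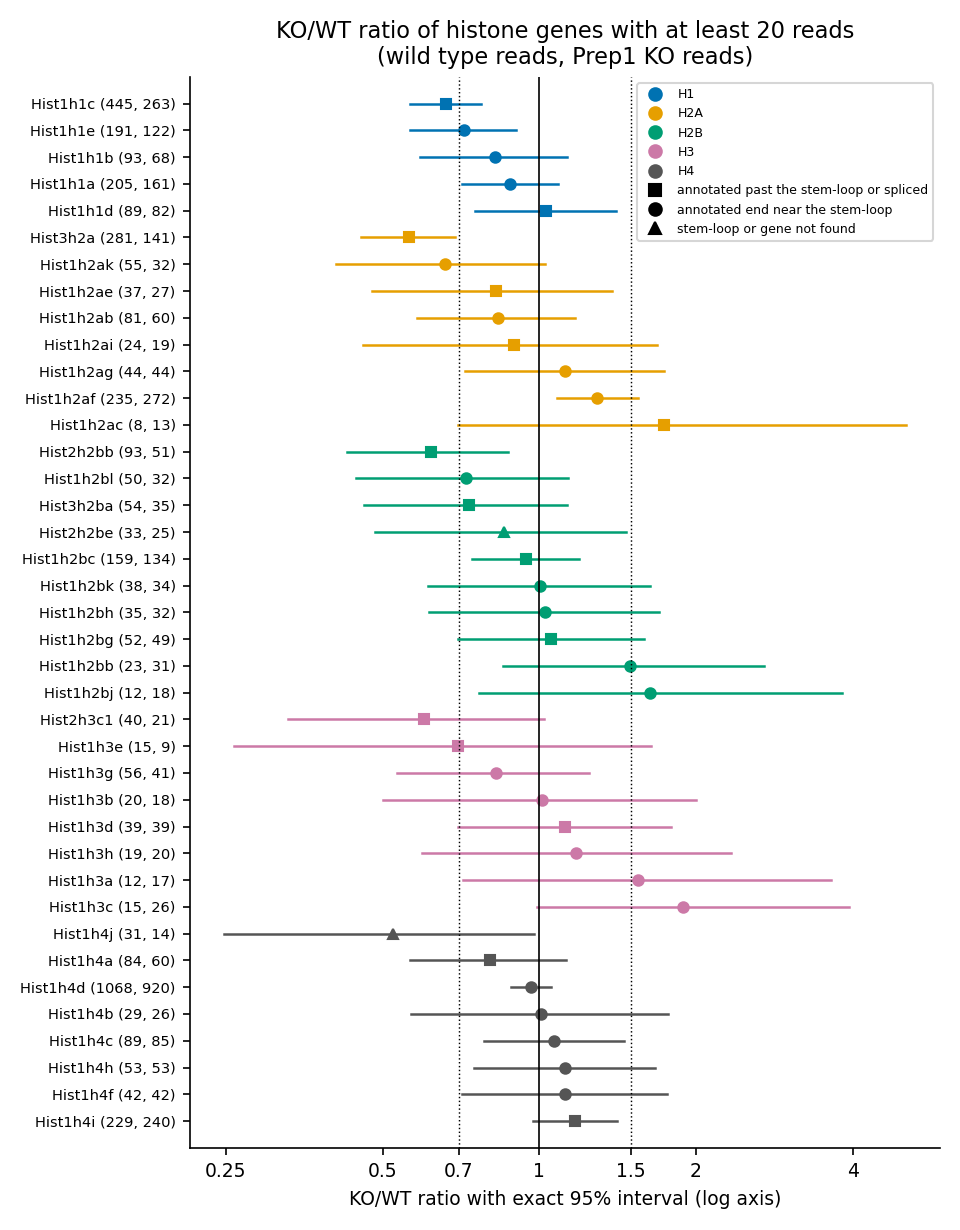
KO/WT ratio (log axis) of the 39 histone genes with at least 20 reads in the libraries together, with its exact 95% interval as a line, ordered by histone type, with the wild type and knockout reads beside each name. Dotted lines mark 0.7 and 1.5, and only Hist1h1c, Hist1h1e, Hist1h4j, Hist2h2bb and Hist3h2a have intervals wholly below 1 and Hist1h2af wholly above.

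The H1 genes encode the linker histones, which bind DNA between nucleosomes. They had the lowest summed ratio of the 5 histone types, with 1023 and 698 reads and a ratio of 0.763 (0.692 to 0.841). Hist1h1c (ENSMUSG00000036181, chr13:23830676-23832235) had 445 wild type reads and 263 in the library labelled Prep1-/-, with RPKM of 9.95 and 6.58 and a ratio of 0.662 (0.565 to 0.771). Hist1h1e had 191 and 122 reads and a ratio of 0.716 (0.564 to 0.901). These 2 genes lay below 1 beyond counting error, whereas the next 3 did not. Hist1h1a had 205 and 161 reads and a ratio of 0.879 (0.710 to 1.08). Hist1h1b had 93 and 68 reads (0.821, 0.589 to 1.13), and Hist1h1d had 89 and 82 (1.03, 0.754 to 1.41). Hist1h1t, the testis-specific H1 gene, had 0 and 2 reads. Without Hist1h1c the type still lay below 1, at 0.842 (0.741 to 0.955).

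H2A and H2B pair as dimers in the nucleosome. The 15 H2A genes had 807 and 646 reads and a summed ratio of 0.895 (0.806 to 0.994), but the members with most reads differed from each other. Hist3h2a (ENSMUSG00000078851, chr11:58768187-58770176), the H2A gene of the small Hist3 cluster, had 281 and 141 reads, RPKM of 10.5 and 5.89 and a ratio of 0.563 (0.455 to 0.689). Hist1h2af (chr13:23625775-23626173) had 235 and 272 reads, RPKM of 101 and 131 and a ratio of 1.29 (1.08 to 1.55). Their intervals do not overlap. Without Hist1h2af the H2A ratio was 0.731 (0.640 to 0.834), and Hist3h2a then held 281 of the 572 wild type reads. The ratio without Hist3h2a is not given here, so the side of 1 on which the H2A sum lies may rest on that gene. Hist3h2a cannot be read on its own, since all of its 1990 annotated bases lie within Trim17 on the same strand, and Trim17 had 274 and 133 reads, nearly the same counts. In Hist1h2af, 79.7% of the 50-base windows of its transcript also occur in other genes' transcripts, so how its reads were divided among H2A genes is uncertain.

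The other H2A genes had fewer reads. Hist1h2ab had 81 and 60 (0.832, 0.583 to 1.17), Hist1h2ak 55 and 32 (0.659, 0.407 to 1.02), Hist1h2ag 44 and 44 (1.12, 0.719 to 1.74) and Hist1h2ae 37 and 27 (0.824, 0.478 to 1.38). All 4 intervals span 1. Hist1h2ac, above the threshold of 1.5, had only 8 and 13 reads (1.74, 0.698 to 5.06), and Hist1h2an, below that of 0.7, had 6 and 2. Hist1h2ao had 2 and 4 reads and an RPKM listed as Inf, and all of its transcript windows are shared with other genes. Hist2h2ab, named after its values were seen, had 7 and 0 reads.

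The 15 H2B genes had 570 and 448 reads and a summed ratio of 0.879 (0.775 to 0.996). The lowest among those with at least 20 reads was Hist2h2bb of the Hist2 cluster, with 93 and 51 reads, RPKM of 2.05 and 1.27 and a ratio of 0.619 (0.427 to 0.872). The H2B gene with most reads, Hist1h2bc, had 159 and 134 reads and a ratio of 0.943 (0.743 to 1.19). Hist3h2ba had 54 and 35 reads (0.732, 0.460 to 1.13), Hist1h2bl 50 and 32 (0.723, 0.444 to 1.14), and Hist1h2bg 52 and 49 (1.05, 0.698 to 1.59). At these depths the ratio of a single H2B gene other than Hist2h2bb could not be told from 1. Hist1h2bk, Hist1h2bh and Hist2h2be had 25 to 38 reads per library and ratios of 1.00, 1.02 and 0.855. Hist1h2bb had 23 and 31 reads (1.49, 0.851 to 2.71) and Hist1h2bj 12 and 18 (1.63, 0.764 to 3.82), while Hist1h2bf had 8 and 3. Hist1h2ba and Hist1h2bm, named after their values were seen, had 3 and 5 wild type reads and 0 in the other library.

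Many H2A and H2B genes face each other across a short shared promoter, and 10 such head-to-head pairs were found among the members, with gaps of 176 to 306 bases. The read counts of partners ranged from alike, as for Hist1h2an (6 and 2) and Hist1h2bp (5 and 2), to far apart, and the H2A gene had the more wild type reads in 4 of the 10 pairs. Hist1h2ac (8 and 13 reads) faces Hist1h2bc (159 and 134) across 251 bases. Hist1h2ak (55 and 32) faces Hist1h2bn (0 and 2) across 216 bases. Hist1h2ae (37 and 27) and Hist1h2bg (52 and 49), 176 bases apart, were the most alike among the pairs with over 20 wild type reads in both genes, and the only other such pair was Hist1h2bl (50 and 32) with Hist1h2ai (24 and 19).

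The core histones H3 and H4 form the tetramer at the centre of the nucleosome, and their genes stood closest to a ratio of 1. The 10 H3 genes had 230 and 201 reads and a summed ratio of 0.977 (0.805 to 1.19), the widest interval of the 5 types. Hist1h3g had most reads, 56 and 41 (0.824, 0.533 to 1.25), followed by Hist1h3d with 39 and 39 (1.12, 0.699 to 1.79). Hist2h3c1 had 40 and 21 reads (0.600, 0.329 to 1.02), and Hist1h3e had 15 and 9 (0.699, 0.259 to 1.64). Above 1.5 lay Hist1h3c with 15 and 26 reads (1.89, 0.989 to 3.94) and Hist1h3a with 12 and 17 (1.55, 0.713 to 3.64). None of the H3 genes with at least 20 reads had an interval that left out 1.

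The 10 H4 genes held the most reads of any type, 1625 and 1446, with a summed ratio of 0.995 (0.926 to 1.07). Hist1h4d (ENSMUSG00000061482, chr13:23673467-23673859) had a ratio of 0.963 (0.881 to 1.05), and the other 9 genes together 1.06 (0.935 to 1.19). Hist1h4i had 229 and 240 reads, RPKM of 12.6 and 14.8 and a ratio of 1.17 (0.974 to 1.41). Neither of the H4 genes with most reads differed between the libraries beyond counting error. Hist1h4c had 89 and 85 reads (1.07, 0.784 to 1.45), Hist1h4a 84 and 60 (0.802, 0.564 to 1.13), Hist1h4h 53 and 53 (1.12, 0.749 to 1.67), Hist1h4f 42 and 42 (1.12, 0.711 to 1.76) and Hist1h4b 29 and 26 (1.01, 0.567 to 1.76). Hist1h4j stood apart from these, with 31 and 14 reads and a ratio of 0.524 (0.248 to 0.978), and its interval reached above 1 when the libraries were scaled by summed reads. GENCODE M1 gives the symbol Hist1h4j to another gene ID, which the files list under a clone name with 36 and 24 reads and a ratio of 0.755, so the identity of this member is uncertain. The H4 protein is encoded alike by many genes, and in Hist1h4d 32.3% of the transcript windows occur in other genes.

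The ratios of the clusters ranged more widely than those of the histone types. The 49 Hist1 genes, 48 of them annotated on chromosome 13 and Hist1h4j not annotated, had 3739 and 3158 reads and a ratio of 0.944 (0.900 to 0.990), and the 43 of them that are not H1 genes had 2716 and 2460 reads and a ratio of 1.01 (0.959 to 1.07). The 5 Hist2 genes on chromosome 3 had 181 and 105 reads and a ratio of 0.649 (0.505 to 0.829), which was 0.686 (0.480 to 0.974) without Hist2h2bb. The 2 Hist3 genes on chromosome 11 had 335 and 176 reads and a ratio of 0.587 (0.487 to 0.707), which was 0.725 (0.460 to 1.13) without Hist3h2a, the gene within Trim17. The intervals of Hist2 and Hist3 thus lay below that of Hist1, and all 5 of their members with at least 20 reads had ratios below 1. The plot of summed ratios sets these groups beside the other gene lists.

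**Figure D3:**
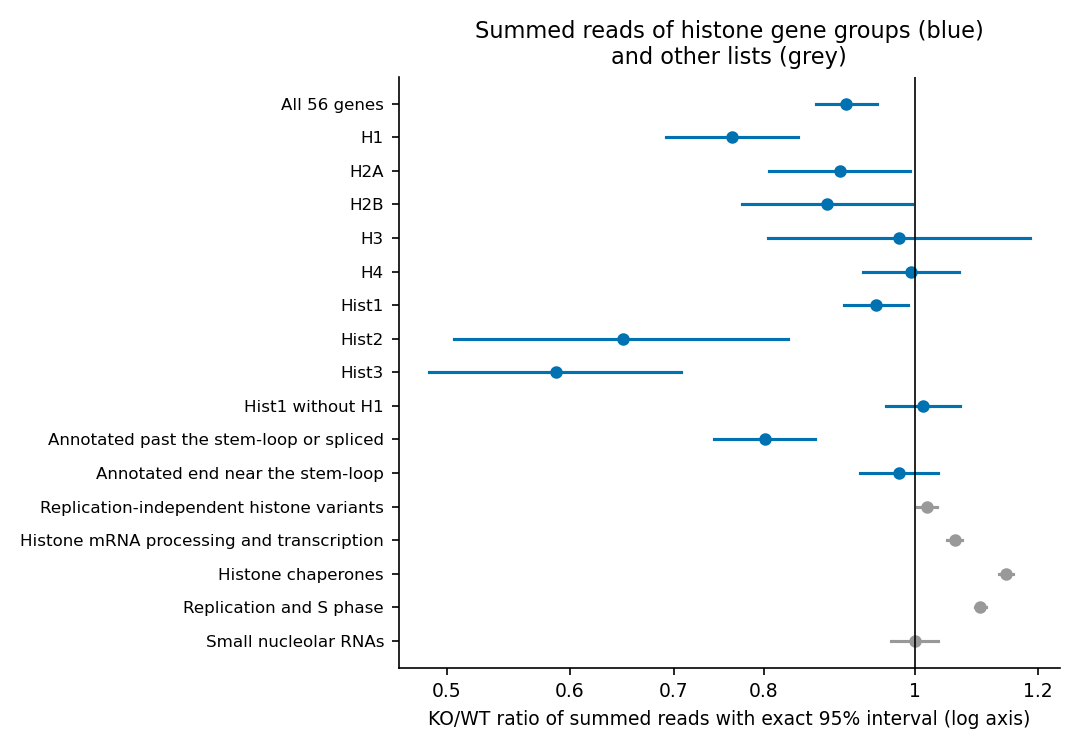
KO/WT ratio of summed reads (log axis) with exact 95% intervals as lines, for the histone genes by type, cluster and annotated 3′ end (blue) and for 5 other gene lists (grey). Among the points plotted, those for H1 (0.763), Hist2 (0.649), Hist3 (0.587) and the genes annotated past the stem-loop or spliced (0.801) lie furthest to the left, while H3, H4 and Hist1 without H1 lie at 0.977 to 1.01.

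The members were then divided by their annotated 3′ end. In 18 members an annotated transcript runs at least 100 bases past the stem-loop or has more than 1 exon, and in 36 the annotation ends within 74 bases of the stem-loop. Some of these 36 annotations stop before the stem-loop, as in Hist1h1b and Hist1h2af. That of Hist1h2af ends at chr13:23626173, and its stem-loop starts at chr13:23626228. For such genes the annotation does not show where the RNA ends, so genes that end near the stem-loop are so named by annotation only. Hist2h2bb, in which no stem-loop was found, is among the 18 because it has 2 exons. Hist2h2be, in which no stem-loop was found either, and Hist1h4j, which is not in the annotation, belong to neither class. The 18 extended genes had 1660 and 1189 reads and a ratio of 0.801 (0.743 to 0.863). The 36 genes that end near the stem-loop had 2531 and 2211 reads and a ratio of 0.977 (0.922 to 1.03). The extended genes thus held 39.0% of the member reads in wild type and 34.6% in the library labelled Prep1-/-, and the intervals of the 2 classes did not overlap. Without Hist1h1c, however, the extended genes had a ratio of 0.852 (0.781 to 0.929), and that interval overlaps the one of the genes ending near the stem-loop.

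H1 genes belong to both classes, and with H1 left out the ratios were 0.836 (0.764 to 0.915) and 1.02 (0.956 to 1.09). Hist3h2a, the gene within Trim17, remained in that extended class, with 281 of its 1126 wild type reads and 141 of 842 in the other library. The ratio of the class without Hist3h2a is not given here. Among H2A genes, the extended class had 350 and 200 reads and a ratio of 0.639, and the class that ends near the stem-loop had 457 and 446 and a ratio of 1.09. Hist3h2a is most of the first and Hist1h2af most of the second. For H2B the ratios were 0.835 (0.711 to 0.980) and 0.977 (0.781 to 1.22). For H3 they were 0.794 (0.577 to 1.09) and 1.12 (0.870 to 1.44). For H1 they were 0.727 (0.633 to 0.833) and 0.803 (0.698 to 0.922). In each of these types the extended class was lower. The intervals of the classes overlap for H2B, H3 and H1. For H2A they do not, at 0.534 to 0.762 and 0.956 to 1.25, but each H2A class rests largely on the 1 gene named above. H4 had the opposite order, with 1.07 (0.912 to 1.26) for the extended class and 0.988 (0.911 to 1.07) for the other, as the bars of reads by 3′ end show. The files do not say where in a gene its reads lie, so whether they come from extended RNAs was not tested.

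**Figure D4:**
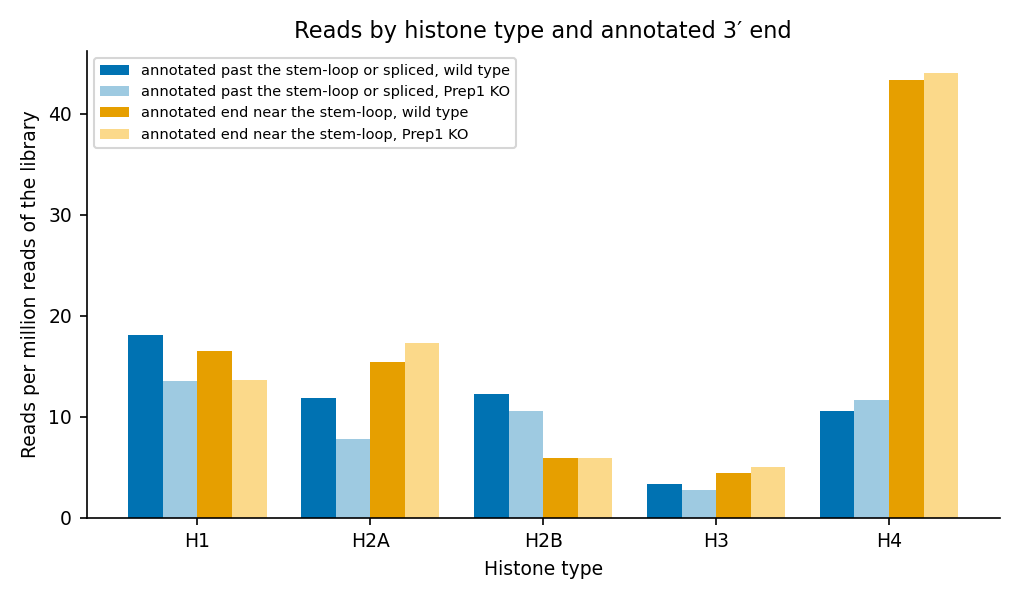
Reads, scaled to library size as on the y axis (RPM, axis from 0), summed over the members of each histone type, divided by annotated 3′ end, with dark bars for wild type and light bars for the library labelled Prep1-/-, without error bars since each bar is 1 library. The extended H2A genes go from 11.8 to 7.78 and the H4 genes that end near the stem-loop stay highest, at 43.3 and 44.0.

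Many histone genes resemble each other, which bears on how reads were shared out among them. Of 55 members, 49 shared at least 1 window of 50 bases with the transcript of another gene, and 19 shared at least 50% of their windows (median 43.2%). The 9 members with under 10% shared windows had 1017 and 695 reads and a ratio of 0.764 (0.693 to 0.842), and the other 46 had 3207 and 2730 reads and a ratio of 0.952 (0.904 to 1.00). Of these 9, 5 are H1 genes, so this ratio largely repeats that of H1. Hist1h1c had most reads among the 9, whose ratio was 0.844 (0.744 to 0.959) without it. Besides Hist3h2a, 5 members overlap another annotated gene, among them Hist2h3c1, which shares 562 bases with Hist2h2aa1 on the same strand, and Hist1h4b, which lies within 4930558J22Rik on the opposite strand. Reads of such neighbours cannot be told apart here.

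The genes around histone supply were compared from fixed lists. Of 20 genes for histone mRNA processing and histone gene transcription, 0 lay below 0.7 and 0 above 1.5, with a median log2 ratio of -0.04 and a summed ratio of 1.06 (1.05 to 1.07). Slbp had 1172 and 1137 reads and a ratio of 1.08 (0.999 to 1.18), and Npat, a coactivator of histone gene transcription, had 2355 and 1984 reads and a ratio of 0.942 (0.887 to 1.00). The gene with most reads was Ccne1, encoding cyclin E1, at 10375 and 10670 reads (1.15), and the ratios ran from 0.843 for Ccne2 to 1.35 for E2f1. The summed H1 and Hist3 ratios lay below the lowest ratio of this list. Of 14 histone chaperone genes, which carry histones to and from DNA, 0 lay past either threshold, with a median log2 ratio of 0.10, a summed ratio of 1.14 (1.13 to 1.16) and a range from 0.847 for Asf1b to 1.33 for Atrx, which also had most reads.

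Of 21 genes of DNA replication and S phase, 0 lay below 0.7 and 1 above 1.5, the polymerase gene Pola1 at 853 and 1299 reads (1.70, 1.56 to 1.86). Their median log2 ratio was 0.14 and their summed ratio 1.10 (1.09 to 1.11), with Rrm1 lowest at 0.829 and Mcm5, which had most reads, between 0.929 and 0.971. The replication-independent histone variants, 9 of 11 listed genes found, had a summed ratio of 1.02 (1.00 to 1.03) and a median log2 ratio of 0.05, with 2 genes below 0.7 and 0 above 1.5. Those 2 were H2afj, at 1398 and 866 reads (0.693, 0.636 to 0.754), and H2afz, at 86 and 53 (0.694, 0.480 to 0.982). H2afx, which had most reads at 11648 and 8631, had a ratio of 0.829 (0.806 to 0.852), and H1fx, a linker histone variant, 1.30 (1.24 to 1.37). Thus the sum of the replication-dependent H1 genes and the variant H1fx lay on opposite sides of 1. Small nucleolar RNAs, which also lack a poly(A) tail, had 6721 and 6013 reads over 286 genes and a summed ratio of 1.00 (0.966 to 1.04). Single genes of this list scattered widely, with 56 below 0.7 and 60 above 1.5 at a median of 6 wild type reads.

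The promoters of the members were searched in RefSeq sequence of build GRCm38.p6, from 250 bases before to 50 bases after the start, for 52 members matched and 27025 genes in all, on both strands. CCAAT was present in 45 of 52 members (86.5%, against 41.1% of all genes), in every H1, H2A, H2B and H3 promoter and in 3 of 10 of H4. TATAAA was present in 33 (63.5%, against 15.7%). The octamer ATTTGCAT, the sequence known from H2B promoters, was present in 13 (25%, against 1.97%), 7 of 15 H2A and 6 of 13 H2B promoters and none of H1, H3 or H4. In head-to-head H2A and H2B pairs the starts lie 176 to 306 bases apart, so the windows of partners overlap. A single match can therefore count for both partners, and the H2A and H2B counts of these 3 sequences are not separate. The octamer of Hist2h2bb, the H2B gene with most reads among those with this match, begins 48 bases before the start and is shown in capitals within 30 bases at chr3:96269641-96269670 of GRCm38.p6, + strand.
Hist2h2bb: tgtgaaacctcATTTGCATacaagctctat

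The decamer known as the Prep1 consensus was found in 0 of the 52 promoters, against 2.62% of all genes. A match or its absence describes only these letters in this window.

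Prep1 ChIP gave 3902 deposited peaks, with scores from 4 to 336 and a median of 21. The study speaks of scores made from the logarithm of the p-value, but the deposited scores match, rounded to whole numbers, the fold enrichment in the part of the study's own peak list used here. No member of the 55 in the annotation had a peak from 500 bases before to 100 after its start, against 7.6% of all annotated genes, or 5.24% with only the higher-scoring peaks. Within 20 kb, 12 members had a peak (against 18.9%), and all of these lay near 4 peaks with scores of 14 to 20, below the median, so that 0 had a higher-scoring peak at that distance (against 11.7%). Within 5 kb there was 1 (against 10.9%), Hist1h1c, whose peak at chr13:23831300-23831900 (mm9, score 20) lies inside the gene, 624 bases from its start, over the stretch that holds the stem-loop. The other peaks near members were at chr11:58773301-58773977, inside Trim17 and 5114 bases from the nearest histone gene start, and at chr13:21802090-21802365 and chr13:21819590-21820203, each over 5 kb from a member. None of the 4 holds an exact match to the decamer pattern used for the promoters, which 35.3% of all peaks hold. The study, with its own motif search, reports its decamer in a larger share of the peaks. The Hist2 genes had no peak within 20 kb. Whether binding bears on the ratios was not tested.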

How the data were processed

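RNA libraries of 1 wild type and 1 Prep1-/- ES cell line (KO2) were compared. Per the submitters' processing notes and the methods, polyA+ RNA libraries were read from both ends for 50 bp, RSEM assigned reads to Ensembl release 63 genes on mm9, and DESeq was run; versions are not given in the sources used here. RSEM shares a read that fits several genes among them, so single histone genes are less certain than sums. The authors deposited a whole-number read count for each of 22718 genes, without normalization. They also deposited an RPKM per gene, which is proportional to the count plus 1 and is listed as Inf for 85 genes. The deposited Prep1 ChIP peaks (made with BWA and MACS per the notes) carry a score, which matches the fold enrichment of the study's peak list rounded to whole numbers. How replicates or peaks were pooled is not given in the sources used here. The totals in the files exceed the depth per sample that the methods give.

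The members and gene lists were chosen with earlier results of these data known. With 1 library per genotype no test was run; edgeR and DESeq2 need replicates and were not used. Below and above mean an RPKM above 1 (in wild type or in the knockout library) with a ratio below 0.7 or above 1.5. Intervals are exact binomial 95% intervals of the knockout share of a gene's reads, multiplied by the factor of 1.12 that scales reads to RPKM. They were tested only on simulated independent counts, without shared reads or variation between lines or libraries. That simulation therefore says nothing about those sources of error. Members with at least 20 reads together (at most 30 by reads) and those past a threshold are named, and in other lists the gene with most reads and the extremes among genes with at least 100 reads. Slbp, Npat, H1fx and members outside this rule were named after their values were seen. Stem-loops were searched within 150 bases of the last coding base in the NCBIM37 genome with GENCODE M1, in which 21446 genes of the files were found. Alternatives were other scalings, filters, thresholds, pseudocounts, 3′ end rules and peak distances. Those without H1, by shared windows and with genes listed under clone names were chosen after seeing the data. Python 3.11.15, numpy 2.4.6, pandas 2.3.3, scipy 1.17.1, pysam 0.24.0 and matplotlib 3.10.9 were used.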

Additional observations from a re-analysis of the deposited data

How the results depend on the processing

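No paired analysis was possible because each genotype has 1 library, and for the same reason no replicate could be left out. No ratio whose interval left out 1 changed direction. Ratios whose interval spanned 1 did cross it: with scaling by summed reads and with the median ratio set to 1, H3 was 1.01 and 1.02, H4 1.02 and 1.04 and the genes ending near the stem-loop 1.01 and 1.02, and Hist1h4d was 1.01 with the latter. Without the member with most reads, H3 was 1.03 and H4 1.06. The upper ends of the H2A, H2B and Hist1 intervals, 0.994, 0.996 and 0.990, pass 1 under both scalings. The median log2 ratio of the members was -0.05 with at least 20 reads. The count of members below 0.7 was 14 without the RPKM filter and 2 with thresholds of 0.5 and 2, and the count above 1.5 was 4 with at least 20 reads and 3 with the wider thresholds; the filters and thresholds themselves make these differences. The summed ratio of all members was 0.946 with the median ratio of expressed genes set to 1 (a factor of 1.17 in place of 1.12) and 0.764 over the members with under 10% shared windows, and the cause of the latter was not tested. Without the member with most reads the ratios were 0.842 for H1, 0.731 for H2A and 0.725 for Hist3. With an annotated span over 1000 bases as the rule for extended genes, 12 genes had a ratio of 0.725 and 28.7% of the wild type member reads. Members near a peak numbered 1 within 5 kb and 0 within 20 kb of the higher-scoring peaks. Under both other scalings, 36 of 39 single ratios kept their side of the interval; those of Hist1h3c and Hist1h4i came to lie above 1, and that of Hist1h4j reached above 1. Depth limits most members: a gene with 20 reads in all has an interval too wide to show a change near 0.7 or 1.5.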

Other observations

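The files list 8 further genes under clone names that GENCODE M1 names as histone genes of these clusters, with 304 and 194 reads together. They did not carry a matching symbol and are not among the 56. The GENCODE gene Hist4h4 had 146 and 119 reads, a KO/WT ratio of 0.913, and Hist2h3b had 67 and 38 reads, a ratio of 0.641. Both are listed on chromosome 3, which also carries the Hist2 genes, so the symbol Hist4h4 does not place that gene in a separate cluster here. The Hist2 ratio given above leaves both out, and a ratio with them is not given here. Hist1h2be had 39 and 9 reads, a ratio of 0.280. The GENCODE gene Hist1h4j, annotated on chromosome 6, had 36 and 24 reads, a ratio of 0.755. With these 8 genes added, the summed ratio of all members was 0.891 in place of 0.904. These genes were named after their values were seen.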
